A study of Mus musculus with 12 samples.

Results

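The receptors through which cultured marrow progenitors read stem cell factor, IL-3, IL-6 and G-CSF, and the feedback genes that the STAT factors below those receptors switch on, were followed across 4 retroviral constructs in mouse bone marrow. The set held 10 genes, chosen by their symbols: Kit, Il3ra, Csf2rb, Csf2rb2, Il6ra, Il6st, Csf3r, Cish, Socs2 and Socs3. All 10 were measured, by 12 probe sets that each carried a single gene symbol, out of 19938 genes measured in that way. Where a gene had 2 probe sets, values are from the brighter one unless the other is named.

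The 4 groups were marrow carrying CALM(400-648)+AF10(677-758), here named the minimal fusion, the fusion CALM-AF10, the fusion CALM-AF10 ΔOM-LZ (below, ΔOM-LZ), and the empty vector MIG as control, with 3 biological replicates and 3 arrays each. CALM-AF10 is a leukaemia fusion, and OM-LZ is its octapeptide motif and leucine zipper, the stretch through which AF10 binds DOT1L, a histone methyltransferase. All groups, MIG included, came from adult mice of the strain labelled C57/BL6/C3H that had received 5-fluorouracil 4 days earlier. All cells were stimulated for 48 h, laid on irradiated (40 Gy) GFP+E86 virus producers with cytokines and protamine sulfate (5 µg/ml), sorted for GFP and lysed 96 h after transduction. The labels speak of cytokines without naming them, so which of the 4 factors the medium held is not known here. Each array reports a sorted but mixed population that had carried its construct for days, and the age of the mice, any pooling of animals and what a replicate number shares across constructs are likewise not stated.

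KIT is the receptor tyrosine kinase for stem cell factor and marks stem cells, early progenitors and mast cells. IL-3 is bound by an alpha chain, the product of Il3ra, which signals with a beta chain; the mouse has a common beta chain (Csf2rb), shared with the GM-CSF and IL-5 receptors, and a beta chain of its own for IL-3 (Csf2rb2). IL-6 is bound by the Il6ra product and signals through gp130, the product of Il6st, while Csf3r encodes the G-CSF receptor of the neutrophil line. Apart from KIT these receptors work through JAK kinases and STAT factors, and STAT5 and STAT3 induce Cish, Socs2 and Socs3, whose products dampen the same receptors.

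Values are log2 intensities from 1 probe set, so levels were compared between arrays and not between genes. The arrays agreed closely over all probe sets, with r from 0.977 to 0.990 within a construct and from 0.970 to 0.995 between constructs, ranges that overlap. Hoxa9, a known target of the fusion, averaged 10.05 ± 0.10 in minimal fusion arrays, 8.97 ± 0.05 in CALM-AF10 arrays, 8.61 ± 0.04 in ΔOM-LZ arrays and 8.67 ± 0.20 in MIG arrays (SD, n = 3 each; minimal fusion against MIG, limma adjusted p = 0.00132). It did not pass against MIG in CALM-AF10 (difference 0.30, limma adjusted p = 0.833) or in ΔOM-LZ (−0.05, 0.999). Mllt10, the mouse AF10 gene, did not pass in any construct against MIG, and whether its probe set reads the AF10 part of the constructs is not known. Probe sets differ in brightness, so the median gene level of 6.97 serves here as no more than a rough guide to detection. All 8 pan-haematopoietic genes checked lay above it, as did 1 of 9 B cell and 1 of 9 T and NK cell genes.

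No receptor or feedback gene passed the test between any 2 constructs after adjustment over all 23410 probe sets tested. In the minimal fusion the means of both beta chains, Cish and Socs3 were lower than in MIG, by log2 differences of 0.42 to 0.86 in size, but none passed. The levels varied widely from array to array within a construct. On 3 arrays, CALM-AF10 replicate 1, ΔOM-LZ replicate 1 and MIG replicate 3, the IL-3 receptor chains and Cish were highest and Il6ra was lowest.

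**Figure D1:**
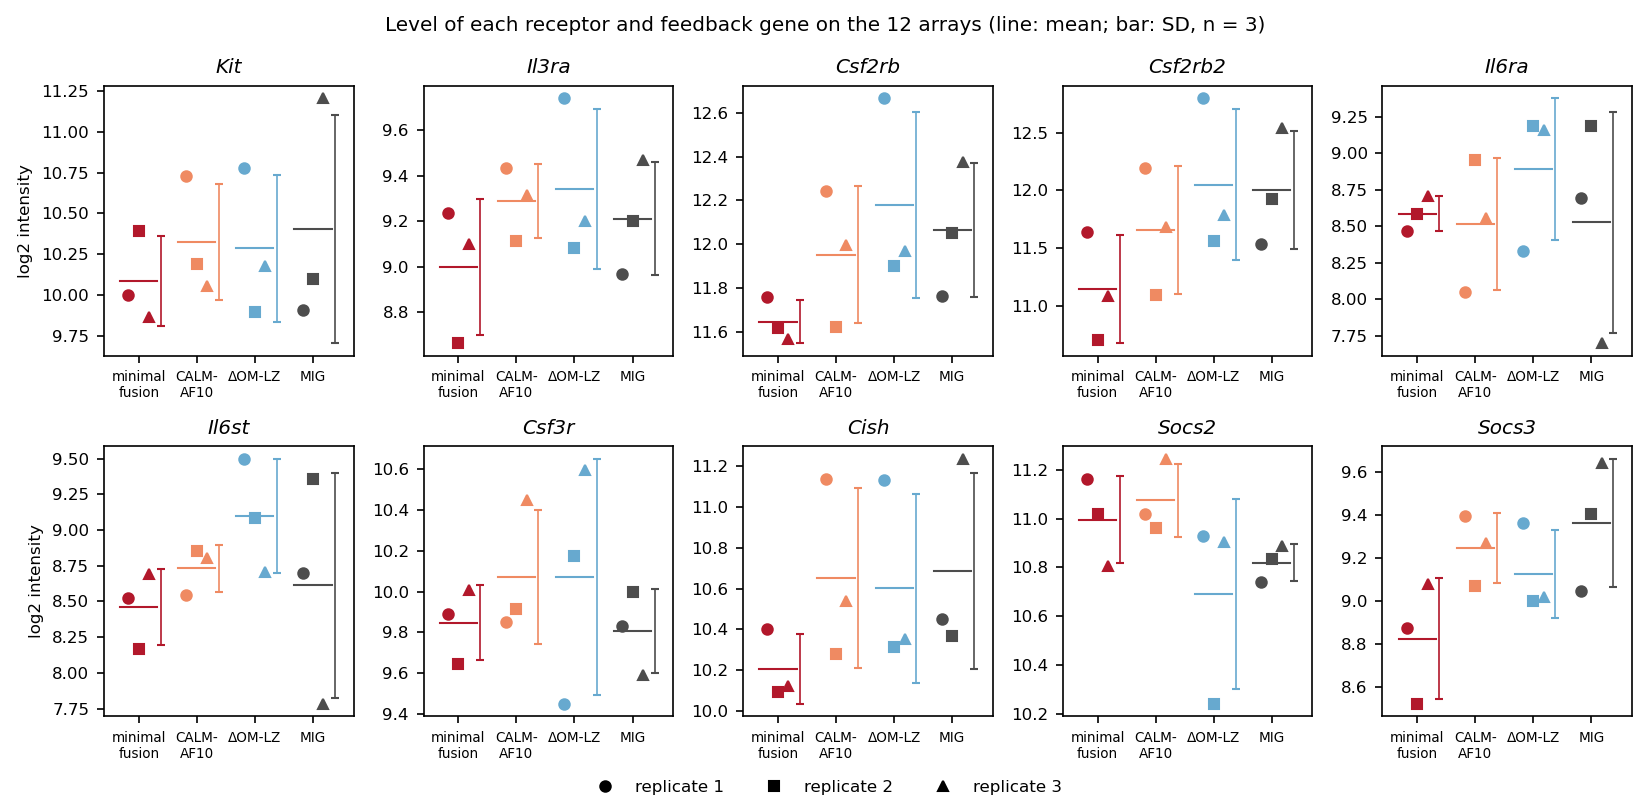
Log2 intensity (y axis) of each of the 10 genes in minimal fusion, CALM-AF10, ΔOM-LZ and MIG arrays (x axis); each point is an array, its shape the replicate number, the line the group mean and the bar the SD (n = 3). The y axes differ between panels. Replicate 1 of CALM-AF10, replicate 1 of ΔOM-LZ and replicate 3 of MIG are the 3 highest points for Kit, Il3ra, Csf2rb, Csf2rb2 and Cish.

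Kit stood at 10.002, 10.39 and 9.86 in the minimal fusion, 10.73, 10.19 and 10.06 in CALM-AF10, 10.78, 9.90 and 10.18 in ΔOM-LZ, and 9.91, 10.10 and 11.20 in MIG. The MIG arrays alone spanned 1.29 of the range of 1.34 seen over the 12 arrays, and every group overlapped every other. Only 8.46% of the variance of Kit lay between constructs. The mean differed by −0.32 on the log2 scale between minimal fusion and MIG (SE 0.34, 95% interval −1.06 to 0.43; limma adjusted p = 0.867).

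Il3ra, the ligand-binding chain for IL-3, read 9.24, 8.66 and 9.10 in the minimal fusion, 9.43, 9.11 and 9.31 in CALM-AF10, 9.74, 9.08 and 9.20 in ΔOM-LZ, and 8.97, 9.20 and 9.47 in MIG. Its lowest array was replicate 2 of the minimal fusion and its highest was replicate 1 of ΔOM-LZ. The groups overlapped, and the minimal fusion differed from MIG by −0.21 (SE 0.21, limma adjusted p = 0.850).

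Csf2rb, the common beta chain, read 11.76, 11.62 and 11.57 in the minimal fusion, 12.24, 11.62 and 11.996 in CALM-AF10, 12.67, 11.90 and 11.97 in ΔOM-LZ, and 11.77, 12.05 and 12.38 in MIG. Every minimal fusion array lay below every MIG array and every ΔOM-LZ array, though by little: the highest minimal fusion array and the lowest MIG array were 11.76 and 11.77. The difference was −0.42 against MIG (SE 0.23, 95% interval −0.92 to 0.08; limma adjusted p = 0.713). Against ΔOM-LZ it was −0.53 (95% interval −1.03 to −0.03; limma unadjusted p = 0.039, adjusted p = 0.999).

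Csf2rb2, the beta chain devoted to IL-3, was the most variable of the 10 genes. It read 11.64, 10.70 and 11.09 in the minimal fusion, 12.20, 11.09 and 11.68 in CALM-AF10, 12.80, 11.56 and 11.79 in ΔOM-LZ, and 11.54, 11.93 and 12.55 in MIG. The 2 lowest arrays were minimal fusion replicates 2 and 3, but minimal fusion replicate 1 lay above replicate 1 of MIG. The means differed by −0.86 between minimal fusion and MIG (SE 0.39, 95% interval −1.73 to 0.01; limma unadjusted p = 0.052, adjusted p = 0.663), and by −0.91 between minimal fusion and ΔOM-LZ (95% interval −1.77 to −0.04; limma unadjusted p = 0.042, adjusted p = 0.999). A fall of up to 3.31-fold and no fall at all both lie within the interval against MIG.

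The 2 beta chain genes are near-identical copies that neighbour each other on chromosome 15 with no annotated gene between them. How far each probe set reads the other copy is not known, so their separate values are uncertain. Their levels went together over the 12 arrays (r = 0.96), while the range of Csf2rb2 was 2.10 and that of Csf2rb 1.10.

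Il6ra, which binds IL-6, read 8.47, 8.59 and 8.70 in the minimal fusion, 8.05, 8.95 and 8.56 in CALM-AF10, 8.33, 9.18 and 9.16 in ΔOM-LZ, and 8.70, 9.19 and 7.70 in MIG. Its 3 lowest arrays were the ones on which Kit and the IL-3 receptor chains were highest. The minimal fusion differed from MIG by 0.06 (SE 0.36, limma adjusted p = 0.983).

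Il6st, the gp130 gene, read 8.53, 8.17 and 8.69 in the minimal fusion, 8.55, 8.85 and 8.80 in CALM-AF10, 9.50, 9.09 and 8.71 in ΔOM-LZ, and 8.70, 9.35 and 7.79 in MIG. All 3 minimal fusion arrays lay below all 3 ΔOM-LZ arrays, and the difference of −0.64 had a 95% interval of −1.38 to 0.10 (limma adjusted p = 0.999). MIG arrays ranged over 1.57, and of the arrays of the other constructs only ΔOM-LZ replicate 1 lay outside them.

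Csf3r, whose product drives neutrophil output, read 9.89, 9.65 and 10.01 in the minimal fusion, 9.85, 9.91 and 10.45 in CALM-AF10, 9.45, 10.17 and 10.60 in ΔOM-LZ, and 9.83, 9.9997 and 9.59 in MIG. ΔOM-LZ held both the lowest and the highest array. The minimal fusion differed from MIG by 0.04 (SE 0.26, limma adjusted p = 0.984), with an interval from −0.54 to 0.62.

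The promoters of the feedback genes are shown because STAT binding sites in them are the textbook link from receptor to feedback. The core TTCNNNGAA, a palindrome and so the same on both strands, was searched from 250 bases before to 50 bases after each RefSeq gene start (GRCm38.p6). Windows were at hand for 8 of the 10 genes, all but Csf2rb and Socs2. Cish held 2 copies just after its start (chr9:107296654-107296683, plus strand), Socs3 held 1 before its start (chr11:117969452-117969580, minus strand), and Csf2rb2 held 1 before its start (chr15:78305722-78305796, minus strand). Capitals mark the core:
Cish: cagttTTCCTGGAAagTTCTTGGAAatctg
Socs3: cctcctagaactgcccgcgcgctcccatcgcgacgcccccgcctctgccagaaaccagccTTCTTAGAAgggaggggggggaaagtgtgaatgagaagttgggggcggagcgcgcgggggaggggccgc
Csf2rb2: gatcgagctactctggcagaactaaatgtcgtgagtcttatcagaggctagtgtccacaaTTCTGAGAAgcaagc

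Of 32851 promoter windows of this length, 8.3% held at least 1 such core and 0.457% held at least 2. Kit, Il3ra, Il6ra, Il6st and Csf3r held none, which says only that these letters are not in this window.

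Cish, the early STAT5 feedback gene, read 10.40, 10.09 and 10.12 in the minimal fusion, 11.14, 10.28 and 10.54 in CALM-AF10, 11.13, 10.32 and 10.35 in ΔOM-LZ, and 10.45, 10.37 and 11.24 in MIG. The arrays fell into 2 sets: CALM-AF10 replicate 1, ΔOM-LZ replicate 1 and MIG replicate 3 lay between 11.13 and 11.24, and the other 9 between 10.09 and 10.54. The high set held 1 array each of 3 constructs, and membership in it was not tested against the construct. Constructs held 25.2% of the variance of Cish. The minimal fusion, with no array in the high set, differed from MIG by −0.48 (SE 0.29, limma adjusted p = 0.752), and from CALM-AF10 by −0.44 (adjusted p = 0.9999).

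Socs3, best known as the inhibitor that STAT3 induces to shut off gp130 and the G-CSF receptor, read 8.87, 8.52 and 9.08 in the minimal fusion, 9.39, 9.07 and 9.27 in CALM-AF10, 9.36, 8.998 and 9.02 in ΔOM-LZ, and 9.05, 9.40 and 9.64 in MIG. The minimal fusion held the 2 lowest arrays, but its highest array lay above the lowest of each other construct. The difference from MIG was −0.54 (SE 0.18, 95% interval −0.94 to −0.13; limma unadjusted p = 0.014), a 1.45-fold lower mean. Its adjusted p of 0.544 was the lowest of the 10 genes in any comparison, and the constructs held 50.3% of its variance, the highest share of the 10.

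A second, dimmer Socs3 probe set averaged 7.14 and followed the brighter one with r = 0.65. There the minimal fusion and MIG differed by −0.11 (adjusted p = 0.909), so the size of the Socs3 difference rests on the brighter probe set.

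Socs2, a feedback gene best known for dampening growth hormone signals, read 11.16, 11.02 and 10.81 in the minimal fusion, 11.02, 10.96 and 11.25 in CALM-AF10, 10.93, 10.24 and 10.90 in ΔOM-LZ, and 10.74, 10.83 and 10.89 in MIG. All CALM-AF10 arrays lay above all ΔOM-LZ arrays and all MIG arrays. The differences were 0.38 against ΔOM-LZ (95% interval −0.004 to 0.77; limma unadjusted p = 0.052, adjusted p = 0.9999) and 0.26 against MIG (95% interval −0.13 to 0.64; adjusted p = 0.9999). On its dimmer probe set, which followed the brighter one with r = 0.96, these differences were 0.33 and 0.17 and both pairs of groups overlapped.

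**Figure D2:**
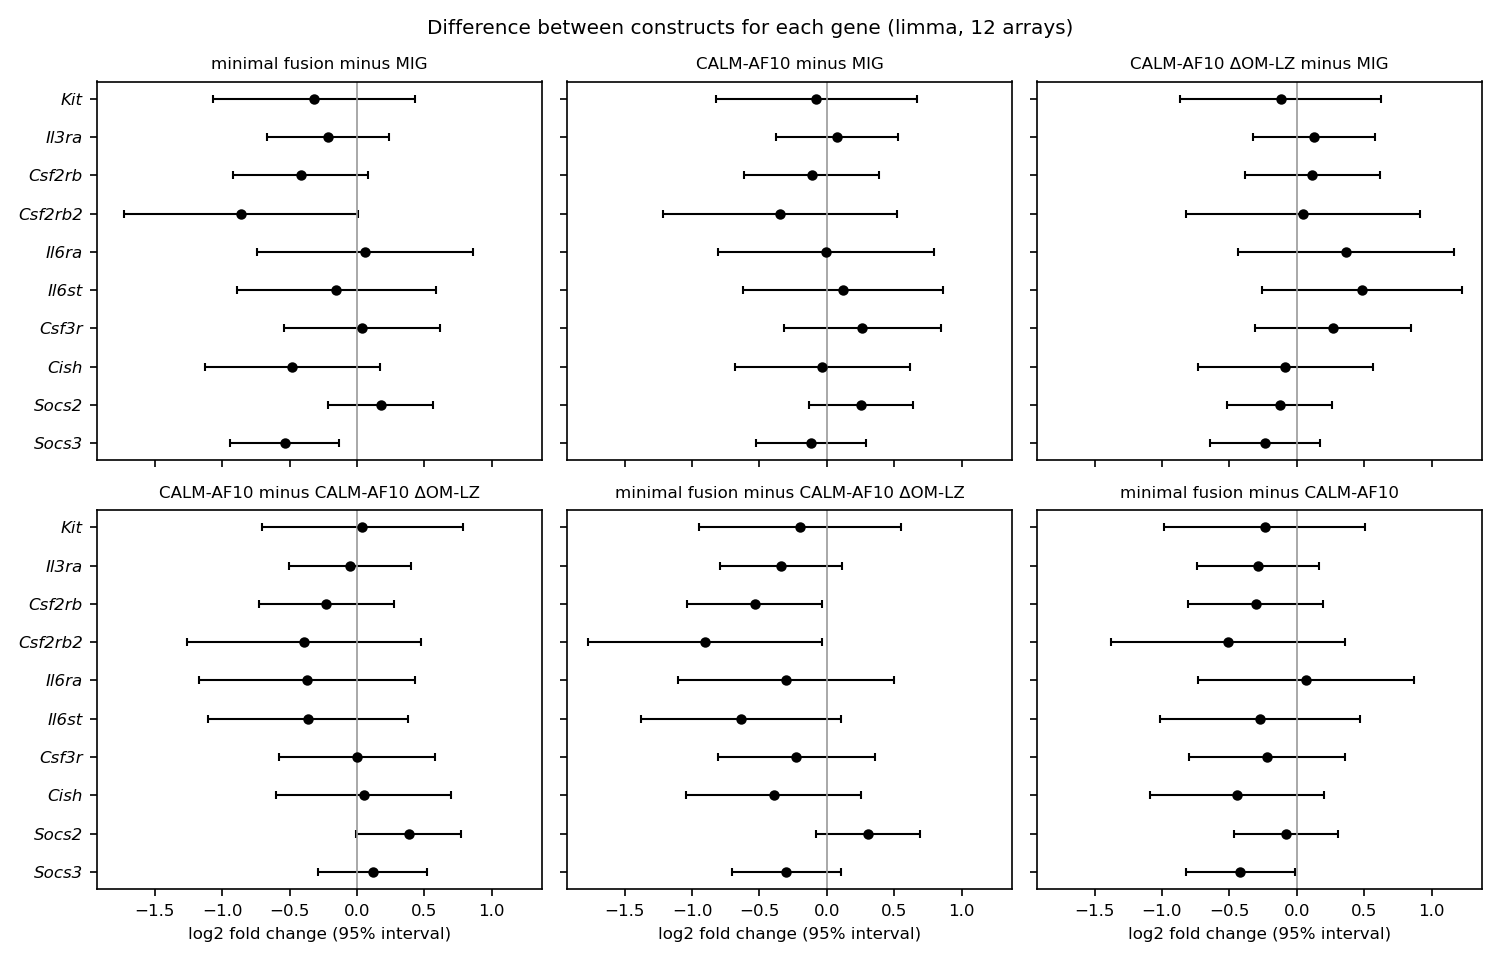
Log2 fold change (x axis) of each gene (y axis) in the 6 comparisons, 1 panel each; points are limma estimates over 12 arrays and bars their 95% intervals. The bar of Socs3 in minimal fusion minus MIG runs from −0.94 to −0.13, and 3 other bars leave out 0, those of Csf2rb and Csf2rb2 against ΔOM-LZ and of Socs3 against CALM-AF10; no estimate passed after adjustment.

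Set side by side, the minimal fusion was the construct with the lower means. Against MIG 7 of the 10 genes had a lower mean (median −0.27, against 0.01 over all genes; 48.8% of all probe sets were lower), against CALM-AF10 9 of 10 (median −0.28; 52.3% of all), and against ΔOM-LZ 9 of 10 (median −0.32; 49.8% of all). These comparisons share the minimal fusion arrays, and the genes are correlated, so the counts are not independent. Il6ra was the exception against CALM-AF10, and Socs2 against ΔOM-LZ.

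Of the 10 genes, 0 were called by limma for the minimal fusion against MIG, where 0.0342% of all probe sets were called, and 1 (Socs3) had an unadjusted p under 0.05, against 7.61% of all. Groups failed to overlap for 1 gene, Csf2rb, where 12.1% of all probe sets did not overlap in either direction. Against ΔOM-LZ 0 were called (0.0171% of all), 2 had an unadjusted p under 0.05 (Csf2rb and Csf2rb2, 4.1% of all), and 2 did not overlap (Csf2rb and Il6st, 7.78% of all). Against CALM-AF10 0 were called (0.00427% of all), and 1 (Socs3) had an unadjusted p under 0.05 (1.8% of all); all 10 overlapped, where 5.38% of all probe sets did not.

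In CALM-AF10 against MIG 6 of 10 means were lower, with a median of −0.02 (49% of all lower). The limma fit called 0 genes at the adjusted threshold, as it called 0% of all probe sets, and 0 at an unadjusted p under 0.05 (5.26% of all). The largest differences were −0.35 for Csf2rb2 and 0.26 for Csf3r, and Socs2 was the 1 gene without overlap (9.31% of all).

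ΔOM-LZ had 4 of 10 means lower than MIG and a median of 0.08 (47.7% of all lower). Here too limma called 0 genes (0% of all probe sets), and 0 at an unadjusted p under 0.05 (3.96% of all). Il6st (0.48, 95% interval −0.26 to 1.22) and Il6ra (0.37, 95% interval −0.44 to 1.17) differed most, and all 10 overlapped (8.04% of all did not).

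Between CALM-AF10 and ΔOM-LZ, the pair that differs by OM-LZ, 6 of 10 means were lower in CALM-AF10 (median −0.03; 48.8% of all lower). Apart from Socs2 the differences ran from −0.39 for Csf2rb2 to 0.12 for Socs3. Again limma called 0 genes (0% of all probe sets), with 0 at an unadjusted p under 0.05 (2.26% of all), and 1 gene did not overlap (6.76% of all). These values take the arrays as unpaired, though same-numbered arrays of this pair deviated together (r = 0.63 to 0.79). With the replicate number as a block over these 6 arrays limma also called 0 of the 10 (lowest adjusted p 0.261). The moderated F test over all 4 constructs also called 0 of the 10 genes, with 0.00854% of all probe sets called and an adjusted p of 0.99986 for each gene.

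The spread within constructs was wide for these genes. Their residual SD, the spread left after the construct means are removed, ran from 0.23 for Socs2 to 0.55 for Csf2rb2, all above the median of 0.18 over all probe sets. All 10 genes averaged above the median gene level of 6.97, and their spread was not compared with that of equally bright probe sets. Csf2rb2 stood at percentile 95.4 of that spread, Il6ra at 94.3, Kit at 93.3, Il6st at 93.2 and Cish at 90.4. Constructs held a median of 26.3% of the variance of the 10 genes, against 21.8% over all probe sets.

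**Figure D3:**
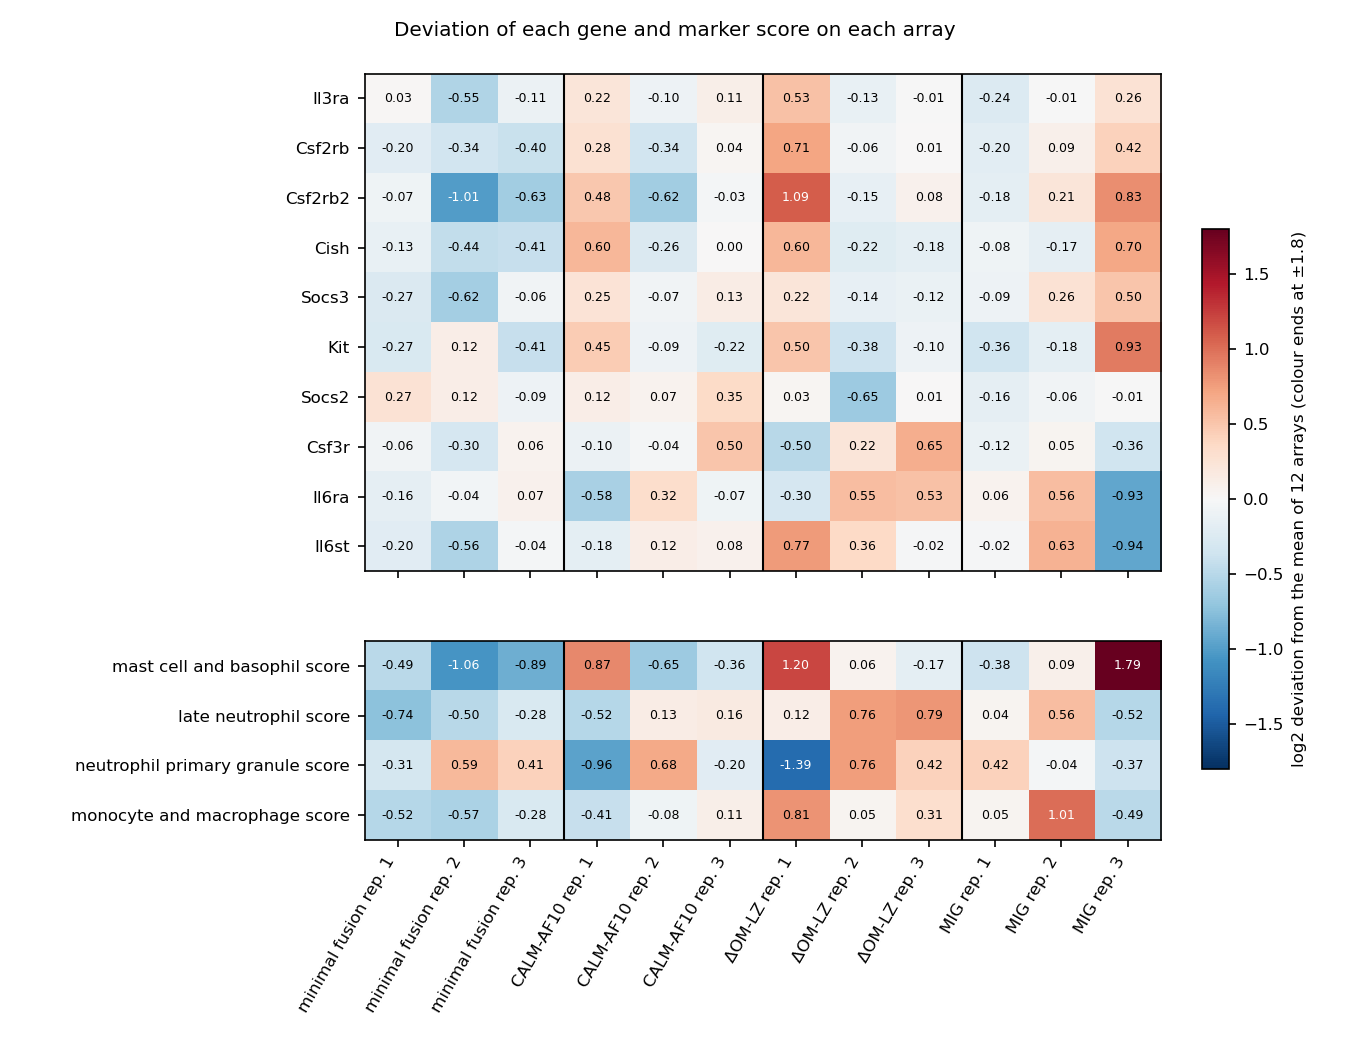
Deviation of each gene (upper block) and of 4 marker scores (lower block) from its own mean over the 12 arrays, in log2 units, with arrays as columns from minimal fusion to MIG; red is above the mean and blue below. CALM-AF10 replicate 1, ΔOM-LZ replicate 1 and MIG replicate 3 are red for the IL-3 receptor chains, Cish, Socs3, Kit and the mast cell and basophil score, and blue for Il6ra.

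Much of that spread was shared. CALM-AF10 replicate 1, ΔOM-LZ replicate 1 and MIG replicate 3 held ranks 1 to 3 of the 12 arrays for Kit, Il3ra, Csf2rb, Csf2rb2 and Cish, and ranks 10 to 12 for Il6ra. For Socs3 they held ranks 1, 3 and 4. No minimal fusion array was among them, and minimal fusion replicate 2 was the lowest array for Il3ra, Csf2rb2, Cish and Socs3.

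Correlations over the 12 arrays put numbers on this for the 45 pairs of genes, with permutation tests adjusted by Benjamini-Hochberg over the 45. By Pearson r 8 pairs passed, 7 positive and 1 negative, and by Spearman rho 3 passed. Those 3 were the pairs among the IL-3 receptor chains: Il3ra with Csf2rb2 (r = 0.91, rho = 0.89), Csf2rb with Csf2rb2 (r = 0.96, rho = 0.97), and Il3ra with Csf2rb (r = 0.86, rho = 0.81). Without the 2 arrays farthest from the median these r were 0.79, 0.91 and 0.81. All 3 pairs also passed on deviations from the construct means (r = 0.95, 0.94 and 0.85; exact permutation within constructs, adjusted p = 0.0248 each), and without any 1 of the 12 arrays.

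The permutations treat the 12 arrays as exchangeable, but same-numbered arrays of CALM-AF10 and ΔOM-LZ deviated together (r = 0.63 to 0.79), and replicate 1 of both is among the 3 arrays named. With each such pair averaged, leaving 9 values, 4 gene pairs passed by Pearson r: Csf2rb with Csf2rb2 (r = 0.95, exact permutation, adjusted p = 0.00533), Il3ra with Csf2rb2 (r = 0.92, 0.0202), Il3ra with Csf2rb (r = 0.84, 0.035) and Csf2rb2 with Socs3 (r = 0.88, 0.0303). By Spearman rho 0 pairs passed on these 9 values (lowest adjusted p 0.059). The 9 values may not be independent either. Minimal fusion replicate 1 deviated with replicate 1 of CALM-AF10 (r = 0.64) and of ΔOM-LZ (r = 0.59).

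Socs3 went with the same receptor chains. Its r was 0.81 with Csf2rb2 (permutation, adjusted p = 0.0164), 0.80 with Il3ra (0.0223) and 0.74 with Csf2rb (0.0334), while rho did not pass for these pairs. The pair with Csf2rb2 passed without each of 10 of the 12 arrays in turn, and the highest adjusted p, 0.107, came without minimal fusion replicate 2. That with Il3ra passed in 9 of these 12 cases (highest adjusted p 0.198, without minimal fusion replicate 2), and that with Csf2rb in 7 (highest 0.117, without MIG replicate 3).

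Kit and Il6ra went opposite ways (r = −0.78, permutation adjusted p = 0.0223), and Kit went with Csf2rb (r = 0.74, adjusted p = 0.0388). Both relations rested partly on the far arrays: without the 2 farthest from the median of Kit, r was −0.54 and 0.46. With 1 array left out in turn, Kit passed with Il6ra in 9 of 12 cases and with Csf2rb in 4. Without minimal fusion replicate 2 the Kit arrays form 2 sets, and over the larger one r was 0.33 with Il6ra (adjusted p = 0.692) and 0.32 with Csf2rb (adjusted p = 0.697). Cish has no pooled r because its arrays form 2 sets. Over the 9 arrays of the larger set its r with Csf2rb2 was 0.80 (exact permutation, adjusted p = 0.0517). On deviations from construct means its r with Il6ra was −0.95 (exact permutation within constructs, adjusted p = 0.0248). That value takes in the smaller set, whose arrays are the lowest for Il6ra. Over the larger set, with 1 array left out in turn, r of Cish with Il6ra ran from −0.27 to 0.23 and passed in 0 of 12 cases.

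Levels in a sorted but mixed population follow the kinds of cells in it, and fewer cells of a type cannot be told apart from less RNA per cell. A marker score, the mean deviation of a list's genes, was therefore set beside each gene for 11 lists, giving 110 relations adjusted together. By Pearson r 13 passed, 10 positive and 3 negative, by Spearman rho 5 passed, and 3 passed by both and on deviations from the construct means. With the paired arrays averaged 5 passed by Pearson r: the mast cell and basophil list with Csf2rb2, Csf2rb and Socs3, and the megakaryocyte and platelet list with Csf2rb2 and Socs3 (exact permutation, adjusted p from 0.00601 to 0.0406). Before averaging, the megakaryocyte and platelet score formed 2 sets of arrays. Over the larger set it did not pass with Socs3 (r = 0.55, exact permutation, adjusted p = 0.304). Once averaged the score no longer split, so MIG replicates 2 and 3, in the smaller set before, entered these r. In the next paragraphs each adjusted p is that of Pearson r unless Spearman is named.

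The mast cell and basophil list moved with the IL-3 receptor. Of its 16 genes 12 lay above the median gene level. Its score was −0.49, −1.06 and −0.89 in the minimal fusion, 0.87, −0.65 and −0.36 in CALM-AF10, 1.196, 0.06 and −0.17 in ΔOM-LZ, and −0.38, 0.09 and 1.79 in MIG. The 3 arrays high for the IL-3 receptor chains were also the 3 high for this score.

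The r with this score was 0.93 for Csf2rb2 (rho = 0.94, permutation adjusted p = 0.0011), 0.92 for Csf2rb (rho = 0.96, 0.00385), 0.82 for Socs3 (rho = 0.71, 0.015), 0.82 for Kit (rho = 0.51, 0.0296) and 0.80 for Il3ra (rho = 0.74, 0.0172). By Spearman rho those of Socs3, Kit and Il3ra did not pass (adjusted p = 0.104, 0.302 and 0.0759). The relations of both beta chains passed without any 1 of the 12 arrays, and those of Socs3, Kit and Il3ra in 10, 7 and 9 of these 12 cases. That of Kit dropped to r = 0.45 without the 2 arrays farthest from the median score. With 1 array left out its r ran from 0.17 to 0.86 (highest adjusted p 0.842, without minimal fusion replicate 2). In minimal fusion against MIG 14 of the 16 list genes had a lower mean (median −0.94), with 0 called by limma and 5 lower at an unadjusted p under 0.05. Of all probe sets 48.8% were lower, 0.0342% were called and 7.61% had an unadjusted p under 0.05 in either direction. The part of these cells in the lower beta chain and Socs3 means was not tested.

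The neutrophil primary granule list, which held enzymes of promyelocyte granules such as Mpo and Elane and also Ms4a3, Gfi1 and Cebpe, ran the other way. Its r was −0.85 with Il3ra (rho = −0.87, permutation adjusted p = 0.0055), −0.83 with Csf2rb (rho = −0.68, 0.015) and −0.82 with Csf2rb2 (rho = −0.76, 0.0165). By Spearman rho that of Il3ra passed (adjusted p = 0.0195) and the other two did not (0.113 for Csf2rb and 0.0676 for Csf2rb2). All 7 of its genes lay above the median gene level. Each of these relations passed without 11 of the 12 arrays in turn and missed the threshold without ΔOM-LZ replicate 1 (adjusted p = 0.0852 for Il3ra).

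Il6ra followed the late neutrophil list, genes of maturing neutrophils such as Ltf and Camp (r = 0.78, rho = 0.77, permutation adjusted p = 0.0298; r = 0.95 on deviations from construct means). That score was −0.74, −0.50 and −0.28 in the minimal fusion, −0.52, 0.13 and 0.16 in CALM-AF10, 0.12, 0.76 and 0.79 in ΔOM-LZ, and 0.04, 0.56 and −0.52 in MIG. By Spearman rho it did not pass (adjusted p = 0.0676). The relation passed without each of only 5 arrays in turn (highest adjusted p 0.0796). Csf3r, a gene of the same lineage, did not pass with this list (r = 0.59, adjusted p = 0.143).

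Il6st followed the monocyte and macrophage list (r = 0.85, rho = 0.86, permutation adjusted p = 0.0129), whose score was highest on MIG replicate 2 (1.01) and ΔOM-LZ replicate 1 (0.81), the 2 highest arrays for Il6st. On deviations from construct means r was 0.89, with an adjusted p of 0.0943, and with 1 array left out in turn the relation passed in 10 of 12 cases (highest adjusted p 0.0852). It also went with the pan-haematopoietic list (r = 0.73, rho = 0.83, adjusted p = 0.046), but this relation passed in 1 of those 12 cases (highest adjusted p 0.118), and on deviations its adjusted p was 0.311.

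The megakaryocyte and platelet score split the arrays into sets of 9 and 3, and over the 9 it went with Csf2rb2 (r = 0.84, exact permutation, adjusted p = 0.046). By Spearman rho this did not pass (adjusted p = 0.279), and with 1 array left out it passed in 2 of 12 cases (highest adjusted p 0.137). Kit went with the erythroid list (r = 0.78, permutation adjusted p = 0.046), but r was 0.16 without the 2 arrays farthest from the median score. Its Spearman rho did not pass (adjusted p = 0.478), and with 1 array left out the relation passed in 2 of 12 cases (highest adjusted p 0.249). In these cases r ran from −0.66 to 0.86, so its sign was not stable. Only 2 of the 8 erythroid genes lay above the median gene level. By Pearson r or Spearman rho over the arrays no gene passed with the eosinophil, B cell, T and NK cell, or fibroblast and producer line lists, and 5 of 15 genes of the last lay above the median gene level. On deviations from construct means Il6ra passed with the T and NK cell list (r = 0.70, exact permutation within constructs, adjusted p = 0.0424; pooled r = 0.66, adjusted p = 0.0936).

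Between minimal fusion and MIG limma called 0 genes of any marker list, where it called 0.0342% of all probe sets. Besides the mast cell and basophil list, the means of several lists lay mostly lower. Among all probe sets 48.8% were lower and 7.61% had an unadjusted p under 0.05 in either direction. Lower means were held by 9 of 9 megakaryocyte and platelet genes (median −1.04, 7 at an unadjusted p under 0.05), 13 of 13 late neutrophil genes (median −0.48, 1) and 11 of 13 monocyte and macrophage genes (median −0.57, 3). Of the primary granule genes 6 of 7 had a higher mean (median 0.13, 0), and so had 7 of 9 T and NK cell genes (median 0.06). Lower means were held by 6 of 7 eosinophil genes (median −0.27) and 5 of 8 erythroid genes (median −0.14). The medians of the B cell, fibroblast and producer line, and pan-haematopoietic lists were 0.01, −0.02 and 0.04. Only 1 of the 7 eosinophil genes and 1 of the 9 T and NK cell genes lay above the median gene level. The part of these lists in the differences of the receptor and feedback genes was not tested.

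**Figure D4:**
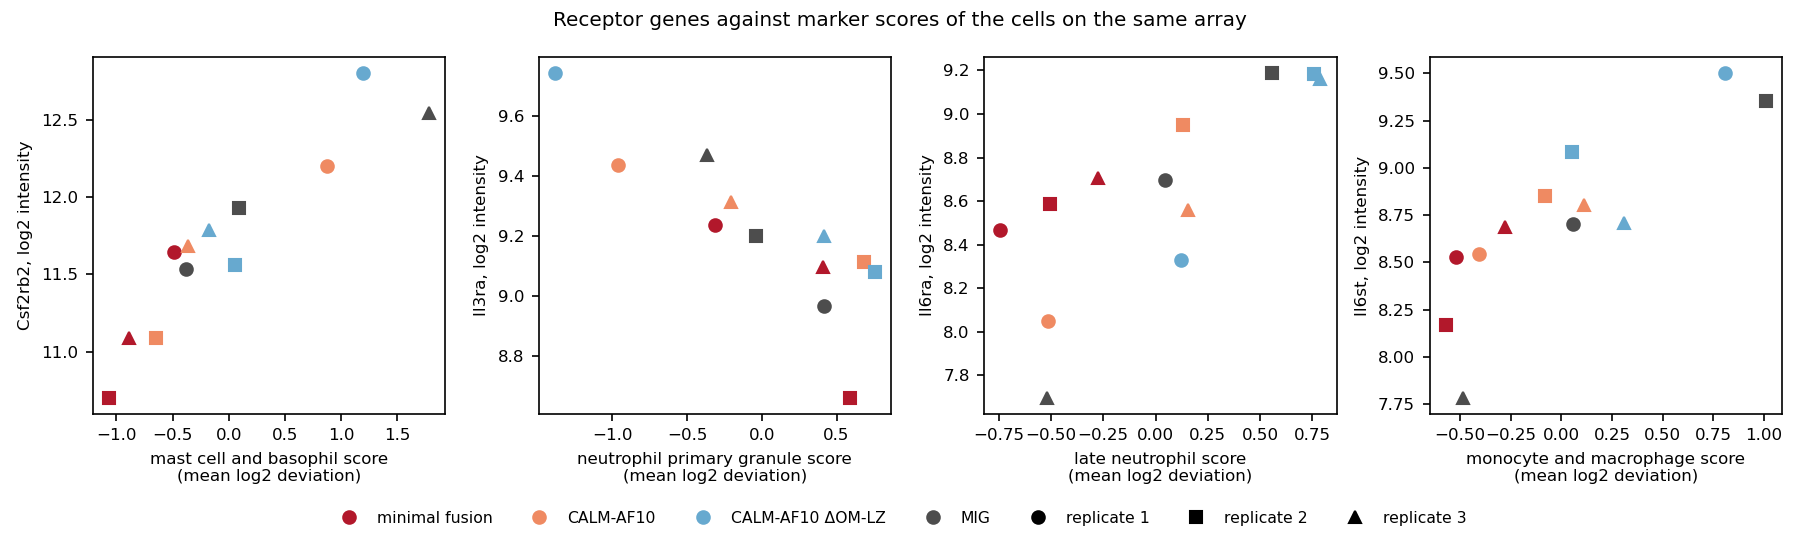
Log2 intensity (y axes) of Csf2rb2, Il3ra, Il6ra and Il6st against the score of a marker list (x axes, mean log2 deviation of its genes) on the same array; colour is the construct and shape the replicate number. Csf2rb2 climbs with the mast cell and basophil score (r = 0.93), Il3ra falls with the primary granule score (r = −0.85), Il6ra climbs with the late neutrophil score (r = 0.78) and Il6st with the monocyte and macrophage score (r = 0.85).

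The genes most like each of the other 9 were taken as the 3 with the highest r over the 12 arrays among 5781 well-measured, variable genes, a description with no test. Csf2rb2 was most like Cd84 (r = 0.98), Rnf128 (0.98) and Cd200r3 (0.98), the last being a receptor of mast cells and basophils. Cd200r3 is itself in the mast cell and basophil list scored above, so this is not separate from that relation. None is named for Cish, whose arrays form 2 sets. Kit was most like Tal1 (0.95), a factor of stem, erythroid and mast cells, then Inpp5d (0.91), the SHIP1 phosphatase gene, and Lxn (0.91).

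Il3ra was most like Lama5 (0.96), Nab2 (0.92) and Zbtb4 (0.91), and Csf2rb like Glb1 (0.98), Suox (0.97) and Id2 (0.96). Il6ra was most like Pstpip1 (0.97), Pik3ap1 (0.95) and Atrnl1 (0.94). Il6st was most like Dse (0.96), Dab2 (0.94) and Ms4a6d (0.93), the last 2 being genes of macrophages. Csf3r came closest to Ikbke (0.91), Bcl3 (0.91) and Sh2b1 (0.90), Socs2 to Zfp940 (0.92), E2f5 (0.92) and Usp22 (0.91), and Socs3 to Cd81 (0.90), Btg1 (0.90) and Lpxn (0.89).

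Around the receptors, the rest of the cytokine pathway was read from 6 lists, and limma called 0 genes of any list in any of the 6 comparisons. Over all probe sets it called 0% to 0.0342%, depending on the comparison. In minimal fusion against MIG the list medians ran from −0.35 to −0.09, against 0.01 over all genes. There 48.8% of all probe sets had a lower mean, and 7.61% had an unadjusted p under 0.05 in either direction. Of 21 other cytokine receptors measured, 16 had a lower mean (median −0.15), with 1 higher and 1 lower at an unadjusted p under 0.05. Il10ra, a receptor of monocytes and macrophages, averaged 7.98 ± 0.06 in the minimal fusion and 9.66 ± 0.74 in MIG, a difference of −1.68 (adjusted p = 0.386). Flt3, the receptor of early lymphoid and myeloid progenitors, averaged 8.40 ± 0.43 in the minimal fusion and 6.99 ± 0.15 in MIG, a difference of 1.40 (adjusted p = 0.521).

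Of 16 ligand genes measured, 10 had a lower mean in the minimal fusion than in MIG (median −0.35), 3 of them at an unadjusted p under 0.05. The shares of all probe sets were 48.8% lower and 7.61% at an unadjusted p under 0.05 in either direction. Il6, which encodes the ligand of the Il6ra product, read 9.64, 7.22 and 8.22 in the minimal fusion, 10.64, 7.73 and 10.59 in CALM-AF10, 11.46, 9.20 and 10.10 in ΔOM-LZ, and 9.50, 10.38 and 11.05 in MIG. It ranged over 4.23 on the log2 scale, and the groups overlapped. Minimal fusion and MIG differed by −1.94 (SE 0.87, adjusted p = 0.651), and by −2.30 for the inflammatory cytokine gene Il1b (adjusted p = 0.435) and −1.66 for Lif (adjusted p = 0.585), whose product also signals through gp130.

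Below the receptors, 7 of 9 JAK and STAT genes measured had a lower mean in the minimal fusion than in MIG (median −0.24), 4 at an unadjusted p under 0.05. For this and the next list, 48.8% of all probe sets were lower and 7.61% had an unadjusted p under 0.05 in either direction. Jak2, the kinase of the beta chains, averaged 9.60 ± 0.27 in the minimal fusion and 10.30 ± 0.32 in MIG (difference −0.71, adjusted p = 0.555). Tyk2 differed by −0.24 (adjusted p = 0.549) and Stat3 by 0.17 (adjusted p = 0.659). Of 18 relays below KIT and the beta chains 11 had a lower mean (median −0.11, 2 at an unadjusted p under 0.05), among them Plcg1 (−0.68) and Gab2 (−0.44), while Akt1 was higher by 0.32, all with adjusted p from 0.636 to 0.753.

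Of 19 other inhibitors of cytokine signals 14 had a lower mean (48.8% of all probe sets; median −0.09), with 1 higher at an unadjusted p under 0.05 (7.61% of all in either direction). That gene, Dok2, an adaptor that restrains signals from receptor tyrosine kinases, averaged 8.96 ± 0.06 in the minimal fusion and 8.52 ± 0.13 in MIG (difference 0.44, adjusted p = 0.415). Of 21 STAT-induced genes outside the SOCS family 16 had a lower mean (median −0.15, 1 higher and 1 lower at an unadjusted p under 0.05). The other 5 had a higher mean. Bcl6 differed by −0.70 (adjusted p = 0.443) and Pim1 by −0.32 (adjusted p = 0.744). The cell cycle gene Ccnd1 averaged 7.198 ± 0.06 in the minimal fusion and 6.55 ± 0.15 in MIG. Its difference of 0.65 came closest to the threshold (adjusted p = 0.0594). Of the 21 genes 19 lay above the median gene level of 6.97. Bcl6 and Ccnd1 did not, with means of 6.46 and 6.79 over the 12 arrays.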

How the data were processed

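Expression was measured on 12 arrays (3 per construct) after whole-transcript sense labelling of RNA from GFP-sorted cells. The authors deposited log2 intensities. Affymetrix Expression Console is the tool that the submitters' processing notes name; its version, summarization and normalization are not stated there. The scale was read from the values (2.88 to 14.27; array medians 6.58 to 6.69), and nothing was renormalized. How normalization moved levels between arrays is unknown, and the number of arrays limits the precision.

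Of 35556 probe sets, 23410 carried a gene symbol in the platform's annotation table and were tested: 21789 carried 1 symbol and 1621 several, and the other 12146 were unnamed. One limma 3.58.1 model (lmFit and eBayes, R 4.3.3) held a mean per construct and left 8 residual degrees of freedom; p-values were two-sided, adjusted by Benjamini-Hochberg over 23410 probe sets of a comparison, threshold 0.05. The fit was tested on simulated data. Correlations used 100000 permutations, or all orders where n was under 10 and within constructs (smallest p 0.000772). No pooled r is given where the largest gap between arrays exceeded 0.4 of the range with at least 2 arrays on each side, a limit chosen after seeing the data. Promoters are RefSeq's, GRCm38.p6.

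The genes and lists were chosen with earlier results of these data known. Named genes are the 10 members, up to 3 highest and 3 lowest moderated statistics of a list per comparison, and the 3 genes with the highest r to each member (none for Cish, whose arrays form 2 sets). Marker lists covered mast cell and basophil, late neutrophil, neutrophil primary granule, monocyte and macrophage, megakaryocyte and platelet, erythroid, eosinophil, fibroblast and producer line, B cell, T and NK cell and pan-haematopoietic genes. Nothing says that the replicates came from separate animals, so p-values measure the spread between these samples. Deviations of same-numbered arrays from their construct means correlated for CALM-AF10 and ΔOM-LZ (r = 0.63 to 0.79 over the 3 pairs), so these numbers were taken to pair the arrays; this comes from the data, not the labels. For no other 2 constructs did every pair exceed 0.1. Single pairs did: minimal fusion replicate 1 deviated with replicate 1 of CALM-AF10 (r = 0.64) and of ΔOM-LZ (r = 0.59). For replicate 3 these r were −0.27 and −0.18. Averaging the CALM-AF10 and ΔOM-LZ pairs leaves the likeness of replicate 1 in place.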

Additional observations from a re-analysis of the deposited data

How the results depend on the processing

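No receptor or feedback gene was called under any alternative run, and the lowest adjusted p was 0.261, with the replicate block over 6 arrays. The sign of a difference turned in 48 of 720 values without 1 array and in 1 of 60 with quantile normalization (Kit, CALM-AF10 minus ΔOM-LZ, −0.01). The counts over all probe sets did move, and the cause was not tested. In minimal fusion minus MIG 8 were called, against 20 with all probe sets of the file, 0 with only the groups compared and 1 to 9 without 1 array. In minimal fusion minus ΔOM-LZ 4 were called, against 2 with median centring, 8 with trend and robust variance, 17 with all probe sets, 0 with only the groups compared and 1 to 5 without 1 array. In minimal fusion minus CALM-AF10 1 was called, against 3 with all probe sets, 0 with only the groups compared and 0 to 1 without 1 array. CALM-AF10 minus MIG had 0, against 1 with all probe sets and 0 to 1 without 1 array; ΔOM-LZ minus MIG had 0, against 2 with all probe sets and 0 to 4 without 1 array. The F test called 2, against 1 with median centring, 4 with quantile normalization, 12 with all probe sets and 0 to 3 without 1 array. With the replicate number as a block over 12 arrays, minimal fusion minus MIG had 1, minimal fusion minus CALM-AF10 had 0 and the F test 1. The replicate block over the 6 paired arrays of CALM-AF10 and ΔOM-LZ, added after seeing the data, called 1 probe set, no member, and it changed no other call on a member. Gene pairs that passed numbered 8, against 4 with the paired arrays averaged, added after seeing the data, and 3 to 9 without 1 array: 3 without minimal fusion replicate 2 or MIG replicate 3, and 4 without CALM-AF10 replicate 1. Relations with marker lists numbered 13, against 5 with the paired arrays averaged and 2 to 17 without 1 array: 2 without ΔOM-LZ replicate 1, and 7 without CALM-AF10 replicate 1 or MIG replicate 3.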
